A study of Mus musculus with 18 samples.

Results

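The 38 genes described here carry the names of the nuclear subunits of respiratory complex I. They are every gene whose symbol is Nduf followed by a, b, c, s, v or ab and a number, with a mean of at least 10 normalized counts over all 18 libraries. Of the 48440 genes deposited, 38 had such a symbol and all 38 met the minimum. The lowest mean was that of Ndufa4l2, at 63.7 normalized counts, and no gene with such a symbol lay below the minimum. All 38 are annotated as protein coding. Ndufa4, despite its name, is now known as a subunit of complex IV (cytochrome c oxidase), and Ndufa4l2 is its paralog. So 36 genes belong to complex I proper. These 2 are left out of the counts by part of complex I but stay in every count and median of the 38 members.

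Complex I, NADH:ubiquinone oxidoreductase, is where most electrons enter the mitochondrial respiratory chain. Its peripheral arm takes electrons from NADH through a flavin and a chain of iron-sulfur clusters to ubiquinone, and its membrane arm uses the energy released to pump protons. The core of the membrane arm is encoded in the mitochondrial genome, all other subunits in the nucleus, and dedicated assembly factors join them. Neurons draw most of their energy from this chain, and inherited defects of complex I damage the brain.

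The study sequenced brain RNA of mice of the Diversity Outbred stock, which mixes several founder strains, and addressed short-term memory. In each of MDTH, HPF and the prefrontal cortex (PFC), named as in the labels, there were 3 libraries of high performers and 3 of low performers. No allele, drug, time or age is given for either group, and how performance was scored is not stated in the labels. The high performers' libraries carry the name numbers 44, 88 and 165 in every tissue, so the tissues appear to share animals, while most low performers' numbers differ between tissues.

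The values are gene counts divided by the authors' normalization factors, called normalized counts below. Column totals ran from 50828589 to 59634490. In PFC and MDTH the library names of high performers have another form than those of low performers. Performance and whatever the form stands for cannot be told apart there. In HPF all 6 names share a form, but the letters after the number are FF or EF in high performers and BA or BD in low performers. Performance and whatever these letters stand for cannot be told apart in HPF either. As a check of the tissue labels, genes of thalamic relay neurons summed to 93045 to 218359 normalized counts in MDTH libraries, against 9609 to 21028 in HPF and 8499 to 12029 in PFC, where Gbx2 was under 10. High and low performers were compared in each tissue with limma on log2(normalized count + 1). A gene passed at an adjusted p (Benjamini-Hochberg, over all genes tested) under 0.05, and differences are high minus low on that log2 scale.

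Promoter stretches of 4 members are printed to set the start region of the member with the smallest p in PFC and MDTH, Ndufa4, beside those that hold letters of known regulators of respiratory genes. The RefSeq table of build GRCm38.p6 held the 250 bases before the start site for 33 of the 38 members. The letters GCATGCGC, a core of the NRF1 site, were found on either strand in 3 of the 33 (9.09%), against 2.56% of the 27025 genes in the table. The letters CCGGAAG, a core of ETS-family sites, were found in 3 (9.09%), against 7.83% of all genes, and AAGATGGC, a YY1 core, in 0, against 1.83%. The 120 bases before the start site are given 5′ to 3′, with these letters in capitals: the ETS core in Ndufs3, and the NRF1 core in Ndufa8 and in Ndufa11, where copies on both strands overlap.
Ndufa4 (chr6:11907451-11907570, minus strand): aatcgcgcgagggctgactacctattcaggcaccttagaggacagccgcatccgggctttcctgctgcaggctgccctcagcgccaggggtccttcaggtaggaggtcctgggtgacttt
Ndufs3 (chr2:90904722-90904841, minus strand): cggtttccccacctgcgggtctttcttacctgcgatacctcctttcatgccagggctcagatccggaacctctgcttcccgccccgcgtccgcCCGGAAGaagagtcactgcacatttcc
Ndufa8 (chr2:36049339-36049458, minus strand): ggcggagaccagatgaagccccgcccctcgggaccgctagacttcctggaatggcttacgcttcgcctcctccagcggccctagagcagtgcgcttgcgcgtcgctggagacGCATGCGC
Ndufa11 (chr17:56717642-56717761, plus strand): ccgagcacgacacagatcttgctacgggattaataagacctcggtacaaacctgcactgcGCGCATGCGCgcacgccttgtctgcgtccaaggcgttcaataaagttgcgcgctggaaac
The NRF1 core was held by Ndufa6, Ndufa8 and Ndufa11, none of which passed in any tissue, and the ETS core by Ndufb6, Ndufb7 and Ndufs3, which were higher in high performers in PFC and MDTH. Members with none of these letters, such as Ndufa4, Ndufa9 and Ndufc1, were higher in both tissues too. A link between letters and calls was not tested. A match is a description of letters, not of binding.

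Many of the 38 members, Ndufa4 of complex IV among them, were higher in high performers in PFC and MDTH. None passed in HPF, where 34 of 38 differences were negative. In PFC 17 of 38 members were higher and 1 was lower, while 3.22% and 2.63% of all 17991 genes tested were called in those directions. In MDTH 25 were higher and 0 lower, with 12.5% of 17861 genes called in each direction. In HPF 0 of 38 passed by limma and 7 had an unadjusted p under 0.05, with 0.0111% of 18082 genes called higher and 0.00553% lower. The median difference of the 38 members was 0.31 in PFC, 0.40 in MDTH and -0.10 in HPF, against -0.0089, -0.0031 and -0.0071 over all genes tested. In HPF, coding genes with transcripts under 2000 bases and a mean of at least 1000 had -0.088, near the members.

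Counted without a model, all 3 high libraries lay above all 3 low libraries for 25 members in PFC, against 17.2% of all genes, and below them for 2, against 13.8%. In MDTH they lay above for 32 members, against 22.2% of genes, and below for 0, against 22%. In HPF they lay above for 0 members, against 8.47% of genes, and below for 11, against 11.6%, and the other 27 overlapped.

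**Figure D1:**
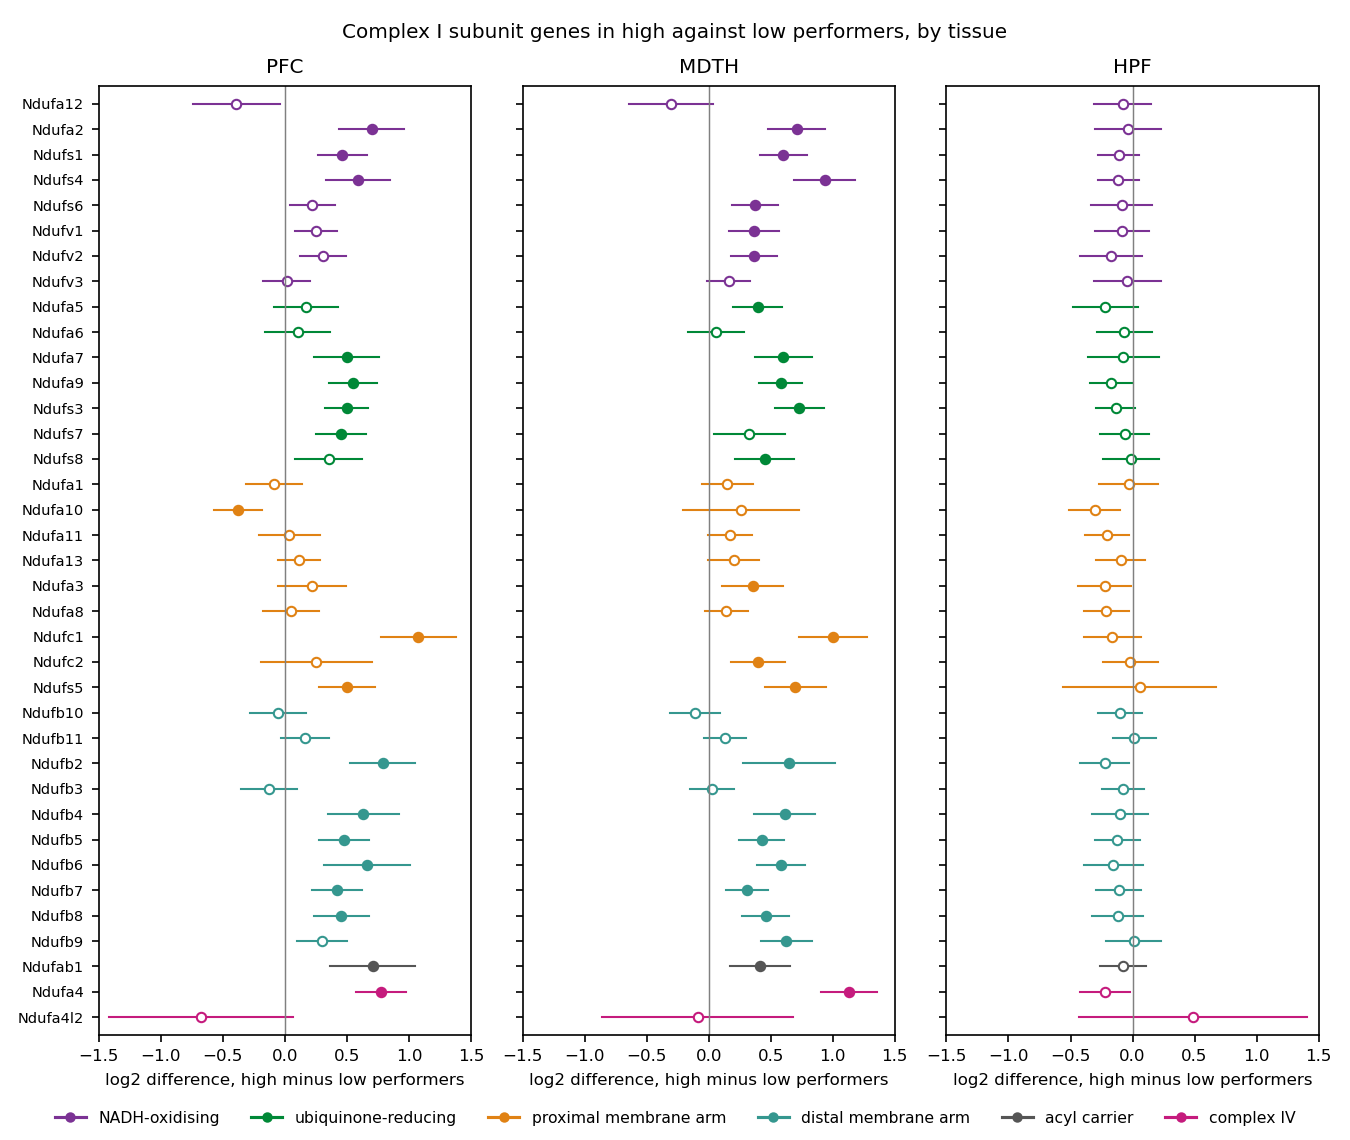
The log2 difference between high and low performers (x axis, lines are 95% limma intervals) is drawn for 37 of the 38 members in PFC, MDTH and HPF, coloured by the part of the complex, with filled points for an adjusted p under 0.05. Filled points lie right of 0 in PFC and MDTH except Ndufa10 in PFC, and every point in HPF is open.

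Ndufa4, the complex IV subunit, had the smallest p of the members in PFC and in MDTH. It had 10351, 12109 and 11270.4 normalized counts in high performers of MDTH, against 5646, 5066 and 4737 in low performers. In PFC it stood at 9140.5, 10145 and 9191 in high performers, against 5790.5, 5757 and 5101 in low performers. The groups did not overlap in either tissue, and the 6 low libraries of PFC and MDTH lay below the 12 others of the study. The difference was 1.13 ± 0.10 (SE, adjusted p = 0.0027) in MDTH and 0.78 ± 0.09 (SE, adjusted p = 0.0134) in PFC. In HPF the order was turned, without overlap, at 9112, 8041 and 8229 in high performers, against 10573, 9562 and 9495 in low performers, a difference of -0.22 ± 0.09 (SE, adjusted p = 0.339) that did not pass.

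By group mean and SD over 3 libraries, Ndufa4 was highest in high performers of MDTH at 11244 ± 879 normalized counts. There followed low performers of HPF at 9877 ± 604, high performers of PFC at 9492 ± 566 and high performers of HPF at 8461 ± 572. Low performers of PFC, at 5549.5 ± 389, and of MDTH, at 5149.6 ± 460.4, came last. Neighbours in this order lay within the sum of their SDs, except high performers of HPF and low performers of PFC.

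The NADH-oxidising module, where electrons enter, had 3 of 8 members higher in PFC and 6 of 8 in MDTH. Ndufs4, an accessory subunit whose loss in mice causes a Leigh-like brain disease, had 2871, 3656 and 3333 normalized counts in high performers of MDTH, against 1765, 1729 and 1642 in low performers. Its groups were well apart there, and the difference was 0.93 ± 0.11 (SE, adjusted p = 0.00358). In PFC, where the groups were also apart, high performers had 2509.9, 3169 and 2773 and low performers 1988, 1840.4 and 1773, a difference of 0.59 ± 0.11 (SE, adjusted p = 0.0316). In HPF high performers had 2864, 2745 and 2831 and low performers 3026, 3014 and 3093, just below and without overlap (-0.11, adjusted p = 0.526).

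Ndufs1, which carries several of the iron-sulfur clusters, had 9570.1, 10926 and 9839 normalized counts in high performers of MDTH, against 6770.0, 6883 and 6312 in low performers. The groups were apart, and the difference was 0.60 ± 0.08 (SE, adjusted p = 0.00477) in MDTH and 0.46 ± 0.08 (SE, adjusted p = 0.0302) in PFC. Ndufa2, an accessory subunit with a thioredoxin-like fold, had 1814, 2163 and 1948 normalized counts in high performers of PFC, against 1105, 1250.1 and 1291 in low performers. Its difference was 0.70 ± 0.11 (SE, adjusted p = 0.0217) in PFC and 0.71 ± 0.10 (SE, adjusted p = 0.00507) in MDTH. The flavin-binding Ndufv1 and its neighbour Ndufv2 passed in MDTH (0.37 and 0.36) and had 0.25 and 0.31 in PFC with adjusted p of 0.0889 and 0.0657.

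The ubiquinone-reducing module, which passes electrons on to ubiquinone, had 4 of 8 members higher in PFC and 6 of 8 in MDTH. Ndufs3, a core subunit of the peripheral arm, had 5151, 5305 and 5265 normalized counts in high performers of MDTH, against 3449, 3138 and 2909.9 in low performers. In PFC the values were 4418, 4509 and 4160.4 in high performers, against 3153, 3040.2 and 3070.2 in low performers. Both pairs of groups were tight and apart, with differences of 0.73 ± 0.08 (SE, adjusted p = 0.00366) in MDTH and 0.50 ± 0.07 (SE, adjusted p = 0.0195) in PFC. HPF again had the opposite order without overlap, with 4597, 4607 and 4636 in high performers, against 5024, 4952 and 5219 in low performers, and did not pass (-0.13 ± 0.07 (SE, adjusted p = 0.441)).

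Ndufa9, which sits where the peripheral arm meets the membrane arm, had 4155, 4762 and 4573 normalized counts in high performers of PFC, against 3138, 3071 and 2983 in low performers. In MDTH it had 4273, 4603 and 4427 in high performers, against 3110.1, 2909 and 2871 in low performers. The groups were apart in both, and the difference was 0.55 ± 0.08 (SE, adjusted p = 0.0195) in PFC and 0.58 ± 0.07 (SE, adjusted p = 0.00435) in MDTH. Ndufs7, a core subunit beside the ubiquinone site, had 0.45 ± 0.08 (SE, adjusted p = 0.0313) in PFC, where it passed, and 0.33 ± 0.12 (SE, adjusted p = 0.0896) in MDTH. Of the 7 nuclear core subunits, which bacterial complex I has too, 3 were higher in PFC and 6 in MDTH, and all 7 had a positive difference in both tissues.

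The proximal membrane arm had 2 of 9 members higher and 1 lower in PFC, and 4 higher in MDTH. Ndufc1, a small membrane subunit, had 1285, 1552 and 1386 normalized counts in high performers of PFC, against 752, 620.0 and 631 in low performers. In MDTH high performers had 1367, 1401 and 1583 and low performers 715, 656 and 801. The groups lay far apart in both tissues, with a difference of 1.08 ± 0.13 (SE, adjusted p = 0.0137) in PFC and 1.00 ± 0.12 (SE, adjusted p = 0.0038) in MDTH. In HPF it had 1453, 1326 and 1220.1 in high performers, against 1437, 1540.3 and 1492 in low performers, and the groups overlapped (-0.16, adjusted p = 0.516).

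Ndufa10, a subunit with the fold of nucleoside kinases, was the member lower in high performers in PFC. It had 5800.0, 5804 and 5755 normalized counts in high performers of PFC, against 7849.7, 7916 and 6850.0 in low performers, a difference of -0.38 ± 0.08 (SE, adjusted p = 0.0455). The HPF groups were apart in the same direction, at 5372, 4854 and 4759 in high performers, against 5699, 6544 and 6278 in low performers, but did not pass (-0.31 ± 0.09 (SE, adjusted p = 0.245)). In MDTH it had 9052, 11788 and 9264 in high performers, against 11100.0, 6551 and 7951 in low performers, and low replicate 1 lay within the high range (0.26 ± 0.20 (SE, adjusted p = 0.375)). The PFC call was lost when any of the 6 libraries was left out.

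The other members of this arm that passed nowhere, Ndufa1, Ndufa8, Ndufa11 and Ndufa13, had differences of -0.09 to 0.11 in PFC and 0.14 to 0.20 in MDTH. In HPF, Ndufa11 had 2375, 2300.2 and 2338 normalized counts in high performers, against 2798, 2579.8 and 2722 in low performers (-0.21, adjusted p = 0.322). Ndufa8 had 3641, 3432 and 3423 there in high performers, against 4238, 4101 and 3817 in low performers (-0.21, adjusted p = 0.328). Ndufa3 had 2816, 2524 and 2732 in high performers, against 3373, 3178 and 2897 in low performers (-0.23, adjusted p = 0.355). All 3 were lower in each high library of HPF than in each low one, and Ndufa3 was higher in high performers in MDTH (0.35 ± 0.10 (SE, adjusted p = 0.0459)).

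The distal membrane arm had 6 of 10 members higher in PFC and 7 of 10 in MDTH. Ndufb2 had 2663, 2949.6 and 2514 normalized counts in high performers of PFC, against 1720.0, 1395 and 1602 in low performers. In MDTH it had 2835, 2082 and 2980.4 in high performers, against 1832, 1468 and 1704 in low performers, with high replicate 2 close to the low group. The difference was 0.79 ± 0.11 (SE, adjusted p = 0.0185) in PFC and 0.65 ± 0.16 (SE, adjusted p = 0.0255) in MDTH. In HPF, where it had 2751, 2529.6 and 2502 in high performers, against 2937, 2925 and 3243 in low performers, the groups were apart the other way and did not pass (-0.23 ± 0.08 (SE, adjusted p = 0.331)).

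Ndufb9, of the LYR protein family, had 4780.0, 5004 and 5068 normalized counts in high performers of MDTH, against 3495, 2905 and 3244 in low performers. The groups were apart, with a difference of 0.63 ± 0.09 (SE, adjusted p = 0.00547) in MDTH, and 0.30 ± 0.09 (SE, adjusted p = 0.0904) in PFC. Ndufb7 had 2549.8, 2744 and 2509.9 normalized counts in high performers of PFC, against 2008, 1996 and 1836 in low performers, which did not overlap (0.42 ± 0.09 (SE, adjusted p = 0.0399)). Ndufb10 had 4346, 4383 and 5128 normalized counts in high performers of MDTH, against 5117, 4906 and 4899 in low performers, which did (-0.11 ± 0.09 (SE, adjusted p = 0.382)). Ndufb3 and Ndufb11 of this arm passed in no tissue either, with differences of -0.13 and 0.16 in PFC and 0.03 and 0.13 in MDTH.

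**Figure D2:**
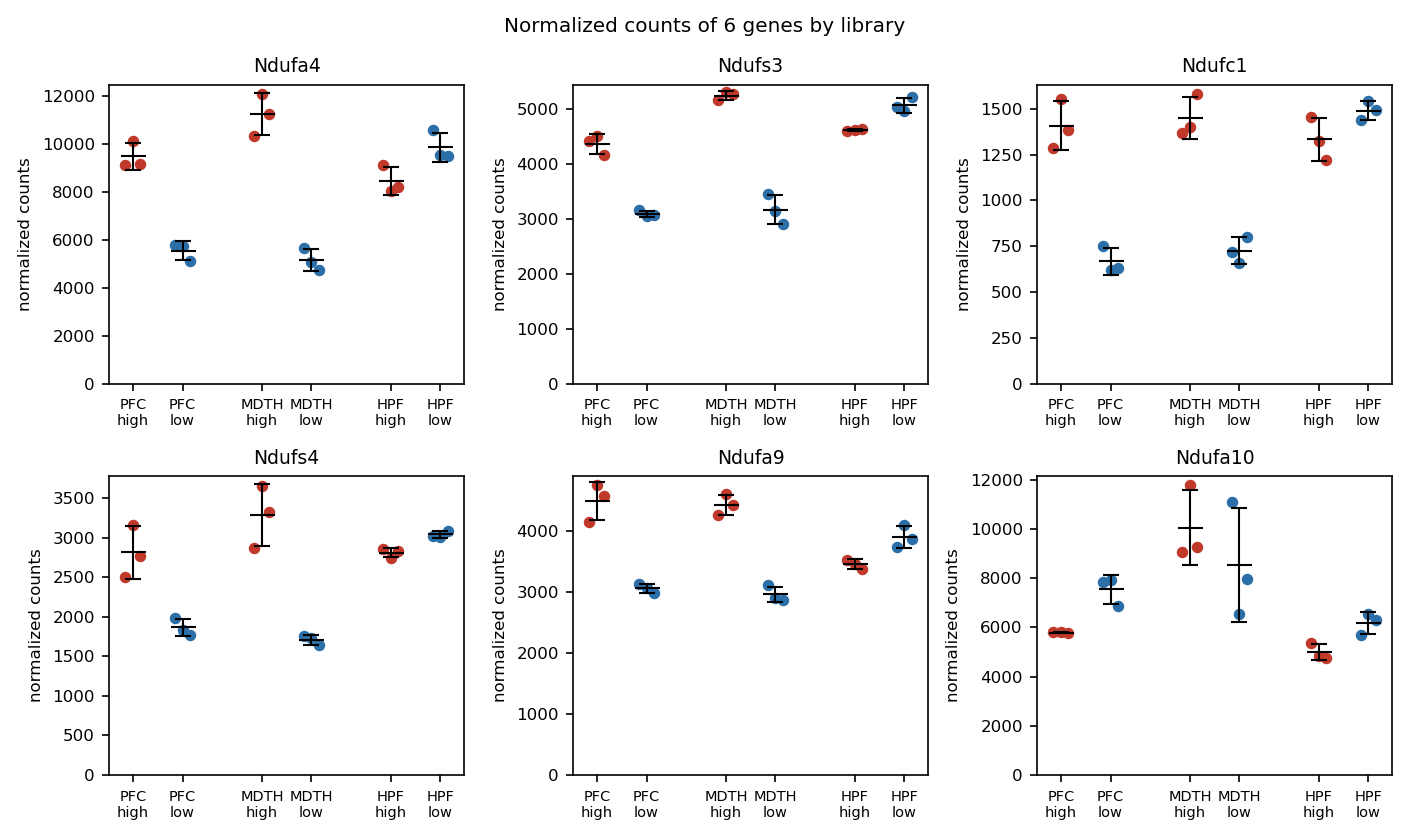
Normalized counts (y axis) of Ndufa4, Ndufs3, Ndufc1, Ndufs4, Ndufa9 and Ndufa10 are drawn per library by tissue, high performers left of low performers, with the mean and SD of 3 libraries. For the first 5 of these genes the low libraries of PFC and MDTH lie below all other libraries, and Ndufa10 does not share this order.

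Members that were higher in both PFC and MDTH numbered 16, which is 94.1% of the 17 of PFC and 64% of the 25 of MDTH. The high libraries of both tissues share name numbers, low number 130 occurs in both, and name forms split the groups in both. The overlap over all genes was not counted, so these shares cannot be called particular to the members. The 12 that were higher in neither were Ndufa1, Ndufa6, Ndufa8, Ndufa10, Ndufa11, Ndufa12, Ndufa13, Ndufa4l2, Ndufb3, Ndufb10, Ndufb11 and Ndufv3. Ndufa12, which takes the place of the assembly factor Ndufaf2 on the peripheral arm, had 2527, 2882 and 2130.1 normalized counts in high performers of PFC, against 3735, 3345 and 2801 in low performers. The high and low groups overlapped, and the difference was -0.39 ± 0.15 (SE, adjusted p = 0.167). Ndufa4l2, known as a hypoxia-induced gene, had 48.5, 61.1 and 41.0 normalized counts in high performers of PFC, against 70.0, 104 and 69.3 in low performers (-0.68 ± 0.31 (SE, adjusted p = 0.242)), and these groups did not overlap.

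As levels over the 18 libraries, per kilobase of the longest annotated transcript, the highest members were Ndufa4 at 6733, Ndufb9 at 6318 and Ndufb10 at 5388 normalized counts. The lowest were Ndufb2 at 542, Ndufb7 at 539 and Ndufa4l2 at 64.1. Ndufa4 was highest and Ndufa4l2 lowest per kilobase of joined exons and of the median basic coding transcript too, while Ndufb7, at 3834 per kilobase, ranked 19 of 38 by the last measure. Median levels per kilobase were 2757 in the NADH-oxidising module, 2819 in the ubiquinone-reducing module, 3553 in the proximal and 2843 in the distal membrane arm.

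The PFC calls needed nearly all libraries. The 17 members called higher became 3 without high replicate 1, 0 without high replicate 2, 0 without high replicate 3, 4 without low replicate 1, 16 without low replicate 2 and 0 without low replicate 3, where 23 to 25 members had an unadjusted limma p under 0.05 and 29 to 33 a positive difference. Over all genes, calls in either direction went from 1053 to 205, 17, 7, 278, 1306 and 9 in the same order. With a constant prior variance in limma, 0 members passed in PFC and 17 were higher in MDTH. Of all genes, 52 and 3086 passed there. In MDTH the 25 became 15 without high replicate 3, 16 without low replicate 2 and 14 without low replicate 3. Calls over all genes there went from 4470 to 2800, 2377 and 1839.

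Between the tissues, the difference between high and low performers was larger in MDTH than in HPF for 25 of 38 members and smaller for 0, in a fit of all 18 libraries where 10.5% and 8.52% of 18254 genes were called. It was smaller in HPF than in PFC for 18 members and larger for 0, where 5.77% and 3.37% of genes were called. Between MDTH and PFC 0 members passed by limma and 5 had an unadjusted p under 0.05, with 0.871% of genes called larger and 2.54% smaller in MDTH. Each tissue enters a pair of these comparisons, so they are not independent. The form of the library names splits high from low performers in PFC and MDTH but not in HPF. Differences from HPF therefore cannot be told apart from whatever the form stands for.

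Ndufa4 had the smallest p in both comparisons with HPF, with a difference of differences of 1.35 ± 0.12 (SE, adjusted p = 2.38e-05) for MDTH minus HPF and -0.999 ± 0.12 (SE, adjusted p = 0.000667) for HPF minus PFC. Ndufs3 had 0.86 ± 0.09 (SE, adjusted p = 4.86e-05) and Ndufa9 0.75 ± 0.09 (SE, adjusted p = 0.000149) for MDTH minus HPF. For HPF minus PFC, Ndufc1 had -1.24 ± 0.15 (SE, adjusted p = 0.000758) and Ndufa9 -0.72 ± 0.09 (SE, adjusted p = 0.000832). In HPF itself none of these 4 genes passed between high and low performers, and their differences there were negative.

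For MDTH minus PFC the smallest p was that of Ndufa10, at 0.64 ± 0.21 (SE, adjusted p = 0.119) with a 95% interval 0.19 to 1.08, which passed without low replicate 1 of MDTH (0.84, adjusted p = 0.00626). Ndufa4 had 0.35 ± 0.12 (SE, adjusted p = 0.146) with a 95% interval 0.09 to 0.61. Ndufb9 had 0.33 ± 0.12 (SE, adjusted p = 0.182) with a 95% interval 0.07 to 0.59.

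Lanes in the HPF library names were spread unevenly over the groups. Lane 3 held high performers alone, lane 5 low performers alone, and lane 4 held 1 library of each. Between those 2 libraries, with no test, 30 of 38 members were lower in the high performer, with a median log2 difference of -0.11, against -0.02 over all genes.

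**Figure D3:**
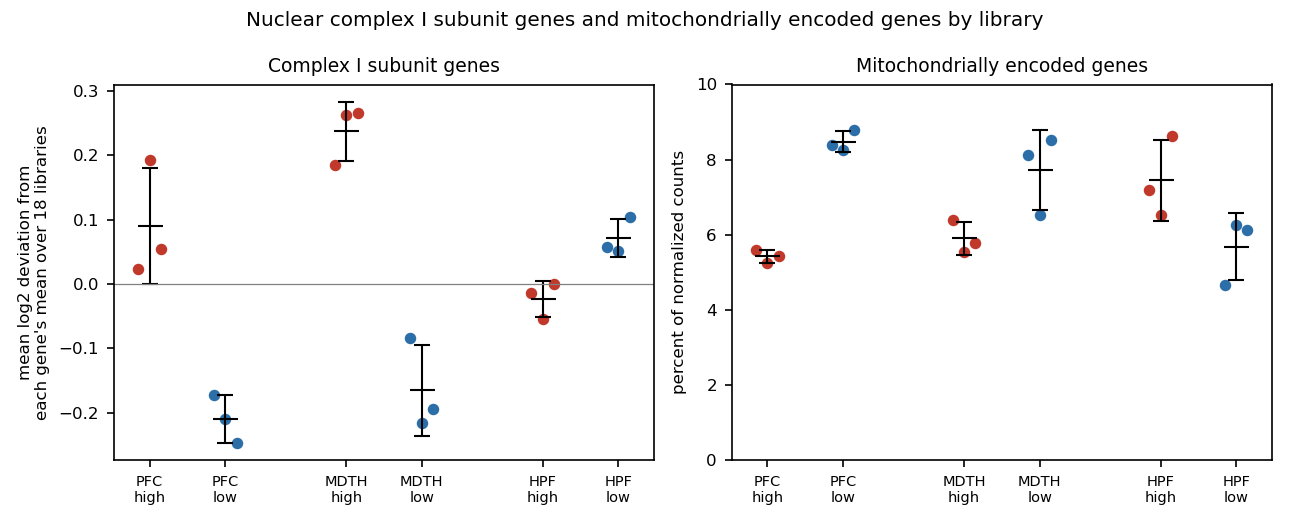
The left panel gives the mean log2 deviation of the 38 members from each gene's mean over 18 libraries, and the right panel the percent of normalized counts on mitochondrially encoded genes, per library by tissue, high performers left of low performers, with mean and SD. On the left the 6 low libraries of PFC and MDTH are lowest, and in every tissue the group that is higher on the left is lower on the right.

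The tissues themselves were then compared over high and low performers together. HPF library names have another form, and other lanes, than all PFC and MDTH names. In comparisons of HPF with another tissue, also within a group, tissue and whatever these stand for cannot be told apart. MDTH was above PFC for 9 members and below for 1, Ndufb9, where 20.3% and 20.4% of genes were called. MDTH was above HPF for 10 and below for 11, where 29.1% and 29% of genes were called. HPF was above PFC for 13 and below for 2, Ndufa12 and Ndufb5, where 21.8% and 23.7% of genes were called. These shares of members were near or under the background, except for HPF above PFC.

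Within each group, the order of HPF against each of the other tissues turned round, and that of MDTH against PFC did not. Among high performers, fitted with a block on the name number, MDTH was above HPF for 23 members and below for 0, with 28% and 27.7% of genes called and a median log2 difference of 0.24. Among low performers, fitted without a block though number 163 occurs in both tissues, MDTH was above HPF for 3 and below for 17. There 24% and 23% of genes were called, and the members' median was -0.20. HPF was above PFC for 1 member and below for 9 among high performers (18.9% and 21.2% of genes), and above for 20 and below for 1 among low performers (17.4% and 19.5% of genes). MDTH was above PFC for 9 members and below for 0 among high performers (19.2% of genes in each direction, median 0.07), and above for 3 and below for 1 among low performers (11.7% and 12.5% of genes, median 0.06). The 6 low libraries of PFC and MDTH lay below the 12 others for 13 members, an order met by 3.03% of genes and counted after these values were seen.

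Ndufv3, an accessory subunit with splice forms that differ between tissues, was highest in MDTH in both groups. It had 3409, 3557 and 3201 normalized counts in high performers of MDTH, against 3036, 3016 and 3020.3 in low performers. In HPF it had 2422, 2339.7 and 2232 in high performers and 2813, 2173 and 2261 in low performers, and in PFC 2294, 2516 and 2483 in high performers and 2439, 2449.8 and 2331 in low performers. All 6 MDTH libraries were above the 12 others. MDTH minus PFC was 0.40 ± 0.06 (SE, adjusted p = 5.46e-05) and MDTH minus HPF 0.44 ± 0.06 (SE, adjusted p = 1.46e-05).

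Ndufa13, also known as GRIM-19, and Ndufa11, which helps hold the membrane arm together, were higher in MDTH than in PFC. Ndufa13 had 6273, 6210.4 and 7409.7 normalized counts in high performers of MDTH, against 5916, 5640.2 and 5702 in low performers, and 5091, 5147 and 5078 in high performers of PFC, against 4967, 4674 and 4547 in low performers. Every MDTH library was above every PFC library, by 0.33 ± 0.05 (SE, adjusted p = 0.000124), and Ndufa11 differed by 0.31 ± 0.06 (SE, adjusted p = 0.000263). Ndufa10 was higher in MDTH than in HPF, by 0.72 ± 0.10 (SE, adjusted p = 2.33e-05).

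Ndufs3, Ndufc1 and Ndufa1 had the smallest p between HPF and PFC, at 0.40 ± 0.04 (SE, adjusted p = 3.05e-06), 0.54 ± 0.08 (SE, adjusted p = 3.37e-05) and 0.35 ± 0.06 (SE, adjusted p = 0.000224). Ndufa1, a small subunit at the foot of the membrane arm, had 2136, 2365 and 2045 normalized counts in high performers of HPF, against 2099, 2465 and 2136 in low performers, and 1546, 1779 and 1709 in high performers of PFC, against 1758, 1717 and 1868 in low performers, so that it was higher in HPF in both groups. For Ndufc1, HPF minus PFC was -0.08 among high performers and 1.16 among low performers. Its MDTH minus HPF difference of -0.46 ± 0.08 (SE, adjusted p = 9.56e-05) was likewise 0.12 among high performers and -1.04 among low performers. For Ndufa4, MDTH minus HPF was 0.41 among high performers and -0.94 among low performers.

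Most of the 7 subunits encoded in the mitochondrial genome had the opposite direction to the nuclear ones. In PFC 1 was higher and 5 were lower in high performers, and in MDTH 2 were higher and 3 lower. Of all genes, 3.22% were called higher and 2.63% lower in PFC, and 12.5% in each direction in MDTH. In HPF 0 passed by limma, 0 had an unadjusted p under 0.05, and all 7 differences were positive. mt-Nd5, a proton-pumping subunit, had 209158, 196155 and 219488 normalized counts in high performers of PFC, against 366077, 365002 and 391904 in low performers, far apart, with a difference of -0.85 ± 0.10 (SE, adjusted p = 0.0136).

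mt-Nd4l and mt-Nd3, which are short, had positive differences in PFC and MDTH, as most nuclear members had, and also in HPF (0.25 and 0.17), where most nuclear members were negative. mt-Nd4l, a small membrane subunit, had 13599, 11894 and 14522 normalized counts in high performers of PFC, against 6631, 4790.4 and 5914 in low performers, and 11634, 10999 and 10982 in high performers of MDTH, against 6372, 3595 and 6344 in low performers. The groups were apart in both tissues, by 1.21 ± 0.14 (SE, adjusted p = 0.0136) in PFC and 1.09 ± 0.21 (SE, adjusted p = 0.0136) in MDTH. mt-Nd3 had 6310.0, 3698 and 2973 normalized counts in high performers of MDTH, against 1437, 1225 and 1059 in low performers, apart by 1.74 ± 0.27 (SE, adjusted p = 0.00686). In HPF the smallest p were those of mt-Nd4 and mt-Nd6. mt-Nd4 had 545036, 370674 and 664888 normalized counts in high performers of HPF, against 355684, 344993 and 350177 in low performers (0.55 ± 0.24 (SE, adjusted p = 0.383)). mt-Nd6 had 74684, 41047 and 70687 normalized counts in high performers of HPF, against 38893, 46003 and 46274 in low performers (0.46 ± 0.23 (SE, adjusted p = 0.439)). The mt-Nd4 groups were apart and the mt-Nd6 groups overlapped. The difference between performers was smaller in MDTH than in HPF for 4 of the 7 and larger in HPF than in PFC for 5. Of all genes, 8.52% and 3.37% were called in those directions.

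All mitochondrially encoded genes together held 5.25% to 5.59% of the normalized counts in high performers of PFC, against 8.25% to 8.79% in low performers. In MDTH they held 5.53% to 6.40% in high performers, against 6.52% to 8.52% in low performers, and in HPF 6.51% to 8.63% in high performers, against 4.66% to 6.25% in low performers. The groups did not overlap in any tissue, and each direction was opposite to that of the nuclear members. With columns set to equal totals without these genes, 17 members were higher in PFC and 22 in MDTH.

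**Figure D4:**
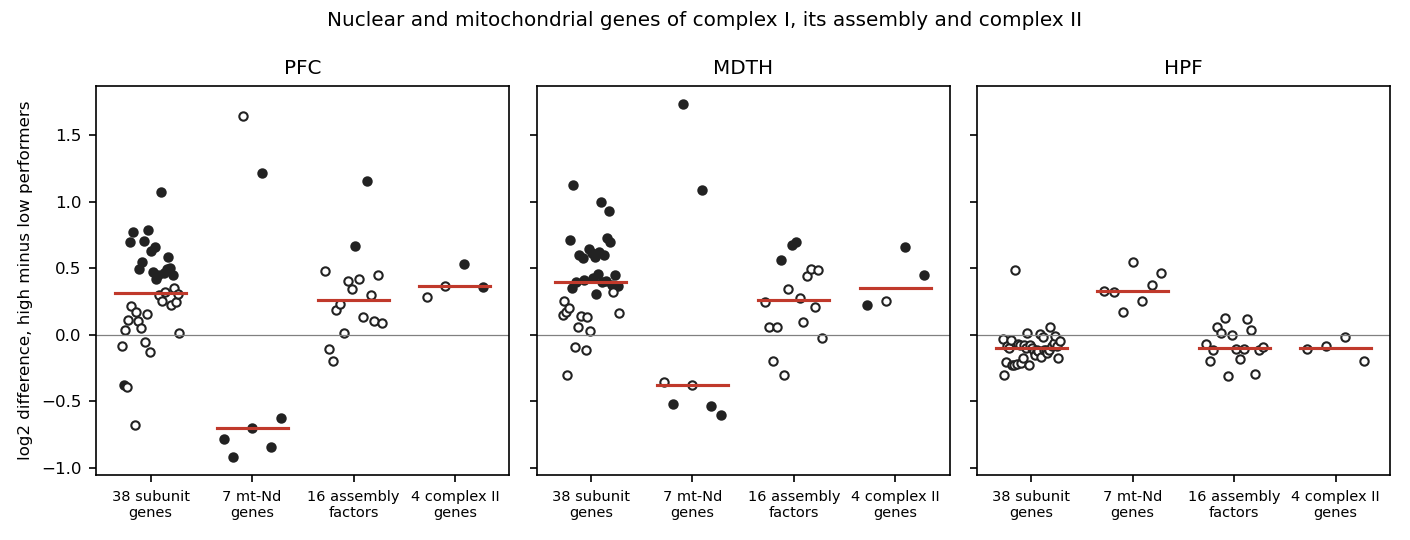
The log2 difference between high and low performers (y axis) is drawn for the 38 members, the 7 mitochondrially encoded subunits, 16 assembly factors and 4 complex II genes in PFC, MDTH and HPF, with filled points for an adjusted p under 0.05 and a red line at each list's median. The nuclear lists have medians above 0 in PFC and MDTH and below 0 in HPF, and the mitochondrial list the reverse.

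Of 16 assembly factors tested, which build the complex without staying in it, 2 were higher in PFC and 3 in MDTH, and 0 were lower. Of all genes, 3.22% were called higher in PFC and 12.5% in MDTH. In HPF 0 passed by limma and 2 had an unadjusted p under 0.05. Ndufaf5, which hydroxylates Ndufs7 during assembly, had 1634, 1813 and 1684 normalized counts in high performers of MDTH, against 1119.9, 1088 and 950.3 in low performers, apart by 0.70 ± 0.10 (SE, adjusted p = 0.00588). In PFC its difference was 0.67 ± 0.14 (SE, adjusted p = 0.041). Ndufaf8, its partner protein, had 414, 425 and 349.9 normalized counts in high performers of PFC, against 165, 181 and 184 in low performers, apart by 1.16 ± 0.17 (SE, adjusted p = 0.0185). Ndufaf4 had 2155, 2414 and 2681 normalized counts in high performers of MDTH, against 1711, 1280.5 and 1549 in low performers (0.68 ± 0.14 (SE, adjusted p = 0.0141)). In HPF, Ndufaf3 had -0.31 ± 0.12 (SE, adjusted p = 0.346) and Ecsit -0.19 ± 0.08 (SE, adjusted p = 0.368), and neither passed.

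Complex II, which feeds ubiquinone from succinate and is wholly nuclear-encoded, had 2 of 4 genes higher in PFC and 3 in MDTH. Of all genes, 3.22% and 12.5% were called higher there. In HPF 0 passed by limma and 1, Sdhd, had an unadjusted p under 0.05. Sdhc, a membrane anchor, had 2817, 2848 and 2834 normalized counts in high performers of PFC, against 1804, 2117 and 1962 in low performers, apart by 0.53 ± 0.09 (SE, adjusted p = 0.024), and in MDTH it differed by 0.66 ± 0.10 (SE, adjusted p = 0.00598). Sdhd, the other anchor, differed by 0.36 ± 0.08 (SE, adjusted p = 0.0467) in PFC, 0.45 ± 0.08 (SE, adjusted p = 0.00922) in MDTH and -0.20 ± 0.07 (SE, adjusted p = 0.32) in HPF. Sdha, the flavoprotein, had -0.11 ± 0.08 (SE, adjusted p = 0.585) in HPF. For all 4 genes the difference between performers was larger in MDTH than in HPF and smaller in HPF than in PFC. Of all genes, 10.5% and 5.77% were called in those directions.

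Of 12 genes of mitochondrial mass and biogenesis, 1 was higher in PFC, and 3 were higher and 1 lower in MDTH. Of all genes, 3.22% were called higher in PFC and 12.5% in each direction in MDTH. In HPF 0 passed by limma and 1 had an unadjusted p under 0.05. Tomm20, an import receptor of the outer membrane, differed by 0.51 ± 0.08 (SE, adjusted p = 0.0195) in PFC. Vdac1, the outer membrane channel, differed by 0.48 ± 0.08 (SE, adjusted p = 0.00762) in MDTH and -0.20 ± 0.10 (SE, adjusted p = 0.429) in HPF. Gabpa, an ETS-family factor of respiratory genes, was lower in MDTH, at -0.57 ± 0.13 (SE, adjusted p = 0.0182), and had -0.62 ± 0.15 (SE, adjusted p = 0.0573) in PFC and 0.29 ± 0.10 (SE, adjusted p = 0.291) in HPF. Of 7 genes that bring electrons to ubiquinone by other routes or, as Coq7 and Coq9, serve its synthesis, 0 passed by limma in PFC and in HPF, with 0 at an unadjusted p under 0.05, and in MDTH 1, Etfdh, was higher (0.48 ± 0.14 (SE, adjusted p = 0.0399)).

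Some members share sequence with processed pseudogenes, between which reads can be split. By 31-base words of GENCODE M21 transcripts, 5 members had such a gene with at least 50% of its words in common and a mean of at least 10. The other 33, among them Ndufa4, Ndufc1, Ndufs4 and Ndufa9, had none. Ndufb4c shared 100% of its words with Ndufb4 and held a mean of 2023 normalized counts, against 979 for Ndufb4. Ndufb4 alone was higher in high performers by 0.63 in PFC and 0.61 in MDTH, but the sum of both genes had 0.02 ± 0.10 (SE, adjusted p = 0.904) in PFC and 0.05 ± 0.07 (SE, adjusted p = 0.628) in MDTH, so the Ndufb4 calls are uncertain.

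The share of Ndufb4 in that sum was 37.9%, 37.3% and 39.3% in high performers of PFC, against 26.9%, 24.5% and 23.8% in low performers. In MDTH it was 37.2%, 36.6% and 40.6% in high performers, against 27.9%, 24.2% and 25.5% in low performers. In HPF it was 31.5% to 36.7% in high performers, against 33.0% to 34.3% in low performers, so that the 6 low libraries of PFC and MDTH were again below all others.

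The acyl carrier protein Ndufab1, which also serves fatty acid and lipoic acid synthesis, also lost its calls, though in PFC its difference stayed about as large. Alone it differed by 0.71 ± 0.15 (SE, adjusted p = 0.0407) in PFC and 0.41 ± 0.10 (SE, adjusted p = 0.0282) in MDTH, and summed with Gm4459 and Ndufab1-ps by 0.63 ± 0.15 (SE, adjusted p = 0.0587) and 0.25 ± 0.10 (SE, adjusted p = 0.103). Ndufa12 summed with Gm15920 was lower in high performers in MDTH, at -0.46 ± 0.12 (SE, adjusted p = 0.0317), and had -0.56 ± 0.13 (SE, adjusted p = 0.056) in PFC. Ndufs3 with Gm12251 and Ndufs5 with BC002163 still passed, at 0.49 and 0.38 in PFC and 0.73 and 0.59 in MDTH. With these sums, 15 members were higher and 1 lower in PFC, and 23 higher and 1 lower in MDTH.

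**Figure D5:**
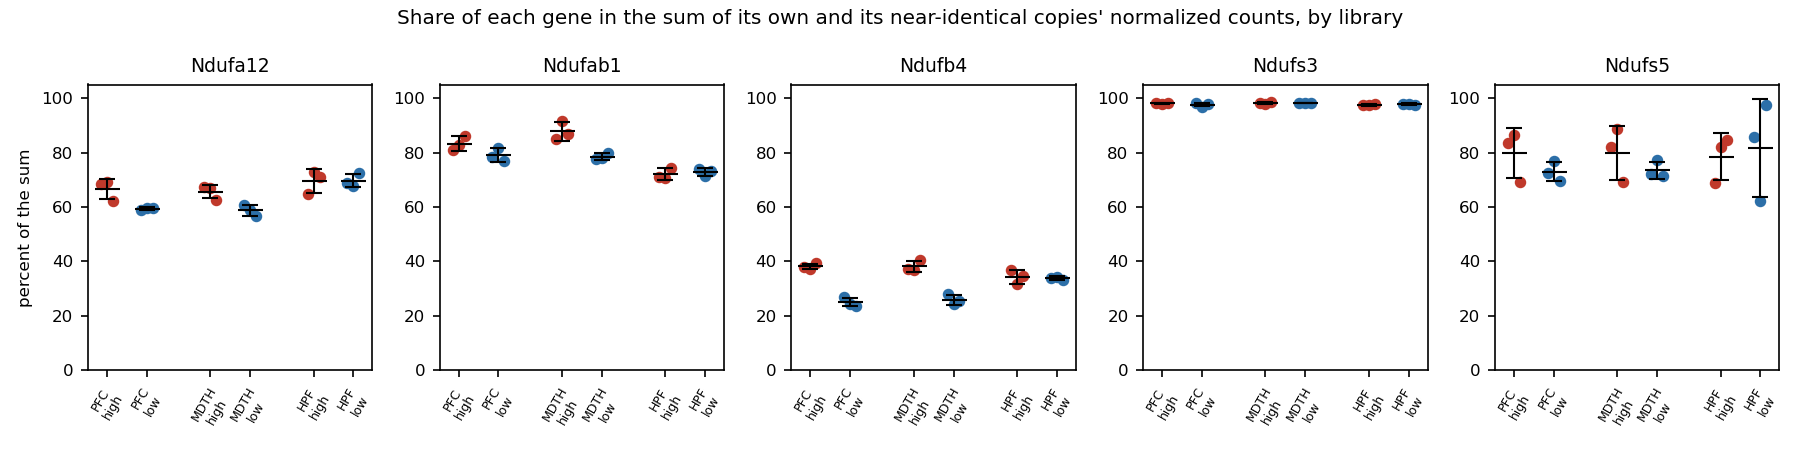
The percent of each gene in the sum of its own and its near-identical copies' normalized counts (y axis) is drawn per library for Ndufa12, Ndufab1, Ndufb4, Ndufs3 and Ndufs5 by tissue, high performers left of low performers, with mean and SD. For Ndufb4 the low libraries of PFC and MDTH lie between 23.8% and 27.9%, below all others, and Ndufs3 stays between 96.9% and 98.5% in all 18 libraries.

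Transcript length moved with the comparison. Coding genes with transcripts under 1000 bases had a median difference of 0.09 in PFC, 0.10 in MDTH and -0.02 in HPF, and the 26 members among them had 0.24, 0.36 and -0.08. Among coding genes under 2000 bases with a mean of at least 1000, 9.15% were called higher in PFC and 25.5% in MDTH. Their median difference was 0.06 in PFC, 0.09 in MDTH and -0.088 in HPF. The members among them had 0.30, 0.38 and -0.0998, so in HPF they lay near genes of like length and level. The 4 members of 2000 to 4000 bases had a median of 0.58 in PFC and 0.51 in MDTH, where all coding genes of that length had -0.04 and -0.03. The part of length in the calls was not tested.

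Summed marker genes of some cell types also differed between the groups. In MDTH, thalamic relay neuron genes summed to 182354 to 218359 in high performers, against 93045 to 136188 in low performers, with 4 of 8 called higher and 1 lower. Inhibitory neuron genes summed to 2133 to 2694 in high performers, against 5683 to 24183 in low performers, with 3 of 6 called lower. Habenular genes summed to 317 to 1562 in high performers, against 2151 to 19919.8 in low performers, with 2 of 6 called lower. None of these ranges met, and excitatory neuron genes, at 114999 to 129587 in high performers, against 68141 to 94069 in low performers, were apart as well, with 1 of 6 called higher. Of all single genes in MDTH, 22.2% had every high library above every low one and 22% below. By limma 12.5% were called in each direction. Among lists whose sums overlapped, Gfap (-1.73) and Aqp4 (-1.003) of 6 astrocyte genes, Mbp (-0.42) of 8 oligodendrocyte genes and Rsph1 (-2.52) of 6 choroid plexus and ependymal genes were lower in high performers. Cx3cr1 (0.40) of 6 microglial genes and Hbb-bt (1.65) of 5 blood genes were higher. In bulk tissue, fewer cells of a type and less RNA per cell cannot be told apart, and the part of cell content in the complex I differences was not tested.

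In PFC, astrocyte genes summed to 43902 to 54451 in high performers, against 56214 to 59803 in low performers, with 0 of 6 called by limma and 1 at an unadjusted p under 0.05. Habenular genes, of which Pou4f1 was under 10, summed to 839.9 to 1331 in high performers, against 2211 to 5198 in low performers. Of the 5 tested, 1 was called lower, Nr4a2 (-1.93). The others did not pass and differed in direction, with Gpr151 at 0.83, Tac2 at -0.67, Chrnb4 at -0.44 and Chrna3 at -0.07. Inhibitory neuron genes were apart too, at 46734 to 46897 in high performers, against 40985 to 45790.4 in low performers, with 0 of 6 called by limma and 0 at an unadjusted p under 0.05. Of all single genes in PFC, 17.2% were apart as higher and 13.8% as lower, and limma called 3.22% and 2.63%. Among lists whose sums overlapped, 1 gene each was lower in high performers: Tbr1 (-0.47) of 6 excitatory neuron genes, P2ry12 (-0.61) of 6 microglial genes, Flt1 (-0.56) of 6 endothelial genes and Lef1 (-1.80) of 7 thalamic genes tested. In HPF, choroid plexus and ependymal genes summed to 7755 to 159808 in high performers, against 4604 to 6061 in low performers, and endothelial genes to 4834 to 9231 in high performers, against 4056 to 4591 in low performers. None of the 6 choroid plexus and 6 endothelial genes passed in HPF by limma, where 0 and 2 had an unadjusted p under 0.05. Of all single genes in HPF, 8.47% were apart as higher and 11.6% as lower. The part of these lists in the complex I values was not tested.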

How the data were processed

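The authors deposited 1 table of normalized signal, gene counts divided by normalization factors, per the name of the deposited table, for 48440 genes and 18 libraries. STAR, Salmon and DESeq2 are named per the submitters' processing notes, without version or role, and the kit was Illumina's stranded TruSeq for mRNA, per the labels' protocols. Build, annotation and strand setting of the counting are not given in the sources used here. Read depth is not stated, so no counting intervals are given. All 18 columns matched samples by library name.

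Genes averaging at least 10 over the fitted libraries were compared with limma 3.58.1 in R 4.3.3 on log2(normalized signal + 1), which understates changes of low genes, with a mean-variance trend, two-sided, and Benjamini-Hochberg adjustment over all genes tested. Each tissue was fitted alone, 3 against 3, and differences between tissues came from a fit of all 18 libraries with 6 group means. The fits were run on simulated independent counts without effects of name form or shared animals, so that run does not bear on these limits. The labels do not say that libraries of a group came from separate mice, so p-values measure the spread between libraries. The name numbers of high libraries paired them across tissues (correlations of deviations 0.46 to 0.61), and a random block on them moved no count by over 1.5 times. Symbols, lengths and coordinates are from GENCODE M21 (GRCm38), which held 99.2% of the identifiers.

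By rule, the genes named were Ndufa4, the 6 members with the smallest p in each tissue and members that passed as lower. The 3 smallest p of each contrast between tissues and the 3 highest and 3 lowest levels per kilobase were added. For the other lists of the pathway, the 2 smallest p in each tissue were taken. Values per library were given for these members in at least 1 tissue. For some genes of the other lists only differences were given. Other genes were named after their values were seen. Members and lists were chosen with earlier results of these data known. Of 17 assembly factors listed 16 were tested. The values of 1 member, which is in every count, are not reported here. Alternatives were pseudocounts of 0.1 and 5, no filter, rescaled or quantile-normalized columns, other limma priors, blocks, near-identical copies summed, and each library left out.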

Additional observations from a re-analysis of the deposited data

Results flagged for a closer look

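The difference between high and low performers itself differed between tissues, by limma's interaction test over all 18 libraries. Name forms split high from low performers in PFC and MDTH but not in HPF, so differences from HPF cannot be told apart from them. For MDTH minus HPF, 25 of the 38 members passed, all with a larger difference in MDTH. On the log2 scale the differences of differences were 1.35 for Ndufa4, 0.86 for Ndufs3, 0.75 for Ndufa9, 1.05 for Ndufs4, 1.17 for Ndufc1, 0.71 for Ndufs1 and 0.75 for Ndufa2. They were 0.62 for Ndufb9, 0.87 for Ndufb2, 0.42 for Ndufb7, 0.58 for Ndufa3, 0.38 for Ndufa11 and 0.35 for Ndufa8. Of these, Ndufa11 and Ndufa8 had not passed in either tissue alone.

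For HPF minus PFC, 18 members passed, all with a smaller difference in HPF. The values were -0.999 for Ndufa4, -1.24 for Ndufc1, -0.72 for Ndufa9, -0.63 for Ndufs3 and -0.53 for Ndufb7. They were -0.57 for Ndufs1, -1.01 for Ndufb2, -0.70 for Ndufs4 and -0.74 for Ndufa2. Groups of 3 libraries are too small for a test of single outlying libraries.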

How the results depend on the processing

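Name forms, cell type marker sums and transcript length limit the PFC and MDTH comparisons. Name letters and lanes limit the HPF comparison, name forms and lanes the differences from HPF, and 3 libraries a group limit all. In PFC the 17 higher members became 0 without the mean-variance trend, 0 with the replicate number as a replicate block, and 0 to 16 with 1 library left out, and the 1 lower member became 0 with all 18 libraries in the fit, without a filter, without the trend, with the block and with any library left out. The 8 assembly and mitochondrial genes that passed in PFC became 3 with quantile normalization, 1 without the trend, 0 with the block and 0 to 7 with 1 library left out. In MDTH the 25 higher members became 16 with the replicate block and 14 to 24 with 1 library left out, the 8 assembly and mitochondrial genes became 4 to 7, and the 0 lower members became 1 with near-identical copies summed. Calls over all genes in PFC went from 1053 to 52 without the trend, 0 with the block and 7 to 1306 with 1 library left out. In MDTH they went from 4470 to 2425 with the block and 1839 to 4223 with 1 library left out. Equal totals without mitochondrial genes gave member medians of 0.31 in MDTH and -0.070 in HPF, and quantile normalization -0.065 in HPF. Replicate numbers did not pair the libraries (correlations -0.13 to 0.09). The cause of these changes was not tested.

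With 1 library left out, 0 to 1 members differed between MDTH and PFC in the performance difference, and 1 to 2 were lower in MDTH than in PFC. Among low performers alone, 3 members were higher in MDTH than in PFC, 3 higher and 17 lower in MDTH than in HPF, and 20 higher and 1 lower in HPF than in PFC. Among high performers with the name-number block, 0 were lower in MDTH than in PFC, 23 higher and 0 lower in MDTH than in HPF, and 1 higher and 9 lower in HPF than in PFC. Ndufc1 changed sign there, to 0.12 for MDTH minus HPF and -0.078 for HPF minus PFC. Equal totals, with or without mitochondrial genes, left 6 members higher in MDTH than in HPF. For named genes, 695 values kept their direction and side of the threshold, 34 lost and 1 gained a call, and with 1 library left out 515 kept, 65 lost and 2 gained one.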
